A study of Mus musculus with 3 samples.

Results

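The red cell membrane is held in shape by a meshwork of spectrin under the lipid bilayer. Ankyrin ties this meshwork to the anion exchanger band 3, and further membrane proteins carry blood group antigens and transport gases or ions. The genes for these parts are switched on in erythroid precursors as they mature in the bone marrow, and inherited defects of several of them give fragile, rounded red cells. The genes of this membrane followed here were chosen by symbol: Slc4a1 (band 3), Ank1 (the erythroid ankyrin), Epb42 (a skeleton protein that binds band 3 and ankyrin), Sptb (the erythroid beta spectrin), Rhd (the Rh blood group protein) and Ermap (a butyrophilin-like surface protein that carries the Scianna blood group in humans). They are 6 of the 56980 genes listed in each count table, and all 6 were detected in every library by unique molecular identifiers (UMIs), the barcodes that mark single RNA molecules.

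BMNCs from the femurs of C57BL/6 mice were profiled at 14 DPI in 3 droplet libraries, each made from 3 pooled mice, whose age was not given in the sources used here. The Control mice were not irradiated, the IR mice received 6 Gy of gamma rays and, according to the methods, the solvent (soybean oil with DMSO), and the IR+CBD mice received 6 Gy and intraperitoneal cannabidiol (CBD) before and after irradiation. Lin-Kit+, Lin-Kit- and Lin+ cells had been sorted and remixed at 5:4:1, so that the true proportions of the marrow are not represented. Late and mature red cells are few among the cells kept here. With 1 library per group there was no replicate and no test between groups, and all 95% intervals given below cover counting error only.

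After cells with fewer than 200 genes or more than 5% mitochondrial UMIs were left out, 10674 Control, 10345 IR and 10273 IR+CBD cells remained, with 194839224, 202361682 and 173466089 UMIs. Levels are given as CPM, the UMIs of a gene per 1000000 UMIs summed over the cells of a library or gate. Cells were gated by UMIs of genes other than the 6. The Klf1+Gata2+ gate (at least 2 Klf1 and 1 Gata2 UMIs) was taken as early, the Klf1+Gata2- gate (at least 2 Klf1 and no Gata2 UMI) as committed and the Alas2+ gate (at least 2 Alas2 UMIs) as late erythroid. Klf1 encodes the erythroid Krüppel-like factor, Gata2 a factor of stem and early progenitor cells, and Alas2 the erythroid enzyme that starts heme synthesis. The Mpo+ gate (at least 5 Mpo UMIs) and the Cd34+Adgrl4+ gate (at least 1 UMI of each) stood for myeloid and for stem and progenitor cells, and a Cd79a+ gate (at least 5 UMIs) for B-lineage cells, which should lack the 6 genes. A cell could pass more than 1 gate. Pairs of libraries shared 26 to 34 barcodes of kept cells.

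Upstream sequences are shown for a few genes because Ermap, Rhd and Sptb came on at different points of the erythroid series. They are the 250 bases before the RefSeq start of transcription on GRCm38.p6, written 5′ to 3′ on the strand of the gene. Capitals mark the letters of GATA-type motifs, which are AGATAA and its variant AGATAG, with TGATAA and its variant TGATAG, and of CACCC-type motifs (CCACACCC, CCACGCCC, CCCCACCC or CCCCGCCC), searched on both strands.
Ermap, chr4:119189996-119190245, minus strand: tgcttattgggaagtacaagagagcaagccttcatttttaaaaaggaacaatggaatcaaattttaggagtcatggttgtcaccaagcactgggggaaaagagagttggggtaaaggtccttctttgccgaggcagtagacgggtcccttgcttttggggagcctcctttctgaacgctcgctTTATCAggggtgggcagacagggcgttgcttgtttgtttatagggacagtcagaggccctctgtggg
Rhd, chr4:134864286-134864535, plus strand: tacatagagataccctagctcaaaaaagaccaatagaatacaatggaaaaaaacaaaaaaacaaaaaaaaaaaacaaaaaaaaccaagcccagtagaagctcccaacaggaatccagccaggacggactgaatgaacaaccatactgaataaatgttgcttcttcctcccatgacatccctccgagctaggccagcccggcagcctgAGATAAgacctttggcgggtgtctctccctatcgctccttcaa
Sptb, chr12:76710548-76710797, minus strand: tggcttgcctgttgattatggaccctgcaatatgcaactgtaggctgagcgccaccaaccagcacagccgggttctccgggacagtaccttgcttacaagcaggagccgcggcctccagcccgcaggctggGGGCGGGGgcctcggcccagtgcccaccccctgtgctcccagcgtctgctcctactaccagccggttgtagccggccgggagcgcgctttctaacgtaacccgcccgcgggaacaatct
The Ermap window held 1 GATA-type motif that began 67 bases before the start, on the other strand, and the Rhd window held 1 that began 43 bases before it. The Sptb window held no GATA-type motif and 1 CACCC-type motif on the other strand, which began 119 bases before the start and lay in a sequence of 65.2% G and C. The table had sequences for 4 of the 6 genes, and 3 of these 4 held a GATA-type and 1 a CACCC-type motif. Epb42 is the third with a GATA-type motif, but its window lies mostly inside the annotated gene and is not shown. Of all 32851 promoter windows of this length, 26.5% held such a GATA-type and 27.4% such a CACCC-type motif, so that the matches describe the letters and nothing about binding.

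In the annotation of GRCm38, Slc4a1 lies on chromosome 11, Sptb on 12, Epb42 on 2, Ank1 on 8, and Rhd and Ermap on 4. Sptb overlaps Plekhg3 on the other strand, Ank1 overlaps Mir486 and Gm15815 on its own strand and further genes on the other, and the other 4 overlap no annotated gene. Because UMIs came from the 3′ ends of transcripts and possibly also from introns, levels are not compared between genes.

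The gates were first checked with markers that the gates did not use. All 10 erythroid markers were detected in each erythroid gate, and their summed level was between 5411 and 6399 CPM in the Klf1+Gata2+ gate, between 8976 and 11413 CPM in the Klf1+Gata2- gate and between 63882 and 100966 CPM in the Alas2+ gate, where globins held most of it. The Alas2+ gate also held granulocyte RNA. The 8 granulocyte and monocyte markers, among them the neutrophil genes S100a8, S100a9, Ltf and Ngp, summed in this gate to 29865 CPM in Control, against 63225 CPM (IR) and 91108 CPM (IR+CBD). They summed to 19863 to 23461 CPM in the Mpo+ gate and 2498 to 4345 CPM in both Klf1 gates. Mast cell and basophil markers summed to 404 CPM in the Alas2+ gate of IR, against 11.8 CPM in Control and 4.79 CPM in IR+CBD. In the Klf1+Gata2+ gate they summed to 168, 110 and 28.4 CPM. Megakaryocyte and endothelial markers stayed at or below 22.0 CPM in each erythroid gate. Stem cell markers did not set the Cd34+Adgrl4+ gate apart, with 134 to 178 CPM there and 152 to 189 CPM in both Klf1 gates. Granulocyte and monocyte markers summed to 12161 to 14899 CPM in the Cd34+Adgrl4+ gate, which therefore holds many myeloid progenitors.

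When the Alas2+ cells were divided by Klf1, a step added after these values had been seen, the granulocyte RNA was in the cells without a Klf1 UMI. In the Control library 19 of the 33 Alas2+ cells had Klf1, as did 69 of 115 (IR) and 38 of 90 (IR+CBD). Their granulocyte markers summed to 824, 1964 and 4081 CPM, their median cell held 52, 56 and 56 UMIs of the 6 genes, and only 2 cells, both in IR, held none. The Alas2+ cells without Klf1 had granulocyte markers at 144396, 230874 and 225476 CPM, and their median cell held 1, 0 and 1 UMI of the 6 genes. They also held erythroid RNA, with globins at 18.6%, 13.5% and 15.5% of their UMIs, against 2.60%, 5.11% and 5.89% in the cells with Klf1. Slc4a1 stood at 407, 46.2 and 186 CPM in them. A limit to cells with Klf1 thus also leaves out cells with globin and Slc4a1 RNA. Levels and ratios of the 6 genes in the Alas2+ gate are therefore given also for its cells with Klf1, while values of other genes, fold steps between gates and thinned shares are for the whole gate.

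The 6 genes were found mostly in the erythroid gates. The gates held 600 Control, 1496 IR and 1236 IR+CBD cells (5.62%, 14.5% and 12% of kept cells) and contained between 81.7% of the UMIs of Sptb in Control and 97.7% of those of Rhd in IR. Erythroid cells were rich in RNA, and the gates held 12.6%, 31.7% and 28.1% of all UMIs in the same order. In the Cd79a+ and Mpo+ cells outside the erythroid gates, levels lay between 0 CPM for Epb42 and 4.67 CPM for Ermap. Epb42 had no UMI in the Cd79a+ cells of Control, which allows up to 0.122 CPM, nor in the IR+CBD library, which allows up to 0.179 CPM (3 UMIs), and no such cell held all 6 genes.

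**Figure D1:**
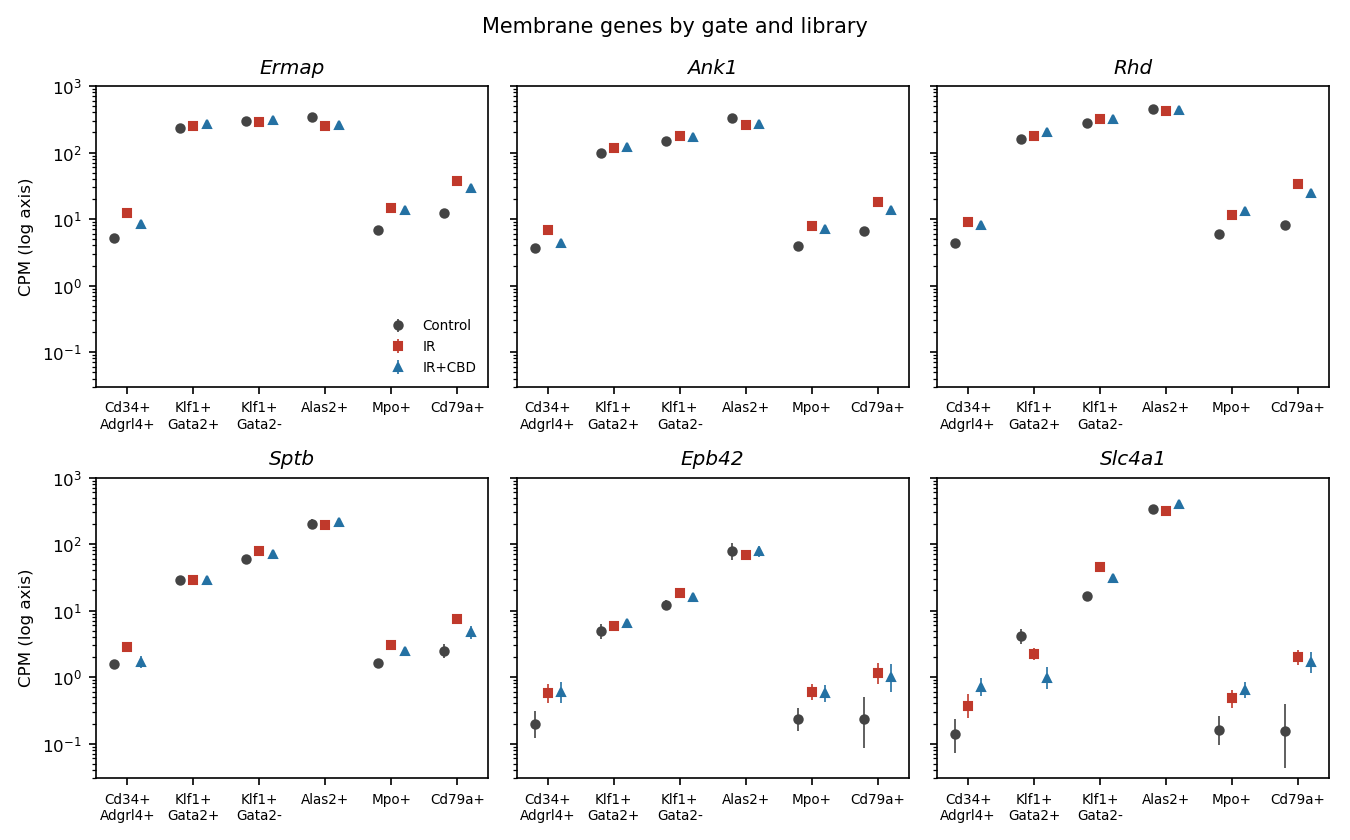
CPM of each gene (log axis) in the 6 gates of the Control, IR and IR+CBD libraries, with exact Poisson 95% intervals of the UMI sum. The Cd34+Adgrl4+, Mpo+ and Cd79a+ gates are plotted whole, with the cells that also passed an erythroid gate. Ermap stood already at 235 to 269 CPM in the Klf1+Gata2+ gate, while Slc4a1 stood at 0.976 to 4.15 CPM there and at 319 to 401 CPM in the Alas2+ gate.

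Band 3 is the anion exchanger that swaps chloride for bicarbonate and the main anchor of the skeleton in the bilayer. Slc4a1 was found in the Klf1+Gata2+ gate at 4.15, 2.25 and 0.976 CPM (Control, IR and IR+CBD, the order of all such values below). It was found at 16.4, 44.9 and 30.7 CPM in the Klf1+Gata2- gate and at 332, 319 and 401 CPM in the Alas2+ gate, or 313, 418 and 540 CPM in its cells with Klf1. The level in the Alas2+ gate was 80.0-fold that in the Klf1+Gata2+ gate (interval 59.8 to 109) in Control, 142-fold (115 to 177) in IR and 410-fold (283 to 618) in IR+CBD. These intervals treat the gates as separate, although they share cells. The early values rested on few cells. Of the 58 early UMIs in Control, 44 came from a single cell that also passed the Alas2+ gate, and 77 of the 96 in IR and 25 of the 29 in IR+CBD came from 8 and 5 such cells. Without them Slc4a1 stood at 1.01, 0.448 and 0.136 CPM in the Klf1+Gata2+ gate (14, 19 and 4 UMIs) and at 4.45, 10.6 and 8.72 CPM in the Klf1+Gata2- gate. Its Klf1+Gata2+ level was then 0.0338 to 0.303% of that in the Alas2+ gate. The fold steps above are therefore smaller than those between separate cells.

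Ank1 encodes the adaptor that binds spectrin on one side and band 3 on the other. Its levels were 99.3, 118 and 122 CPM in the Klf1+Gata2+ gate, 151, 177 and 172 CPM in the Klf1+Gata2- gate and 335, 257 and 270 CPM in the Alas2+ gate. In the Alas2+ cells with Klf1 it was found at 389, 347 and 418 CPM. In Cd79a+ cells outside the erythroid gates it stood at 1.59, 2.42 and 1.67 CPM, so that Ank1 was far above this level from the first erythroid gate on.

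Epb42 encodes a membrane protein that steadies the contact of band 3 with ankyrin. It was found at 4.87, 5.94 and 6.53 CPM in the Klf1+Gata2+ gate, at 12.1, 18.5 and 16.1 CPM in the Klf1+Gata2- gate and at 77.9, 69.0 and 77.9 CPM in the Alas2+ gate, the last on 53, 184 and 114 UMIs. In the Alas2+ cells with Klf1 it stood at 88.5, 91.1 and 114 CPM. The 3 libraries had overlapping intervals in the Klf1+Gata2+ and the whole Alas2+ gate.

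Sptb encodes the beta chain of spectrin, the long flexible dimer of the meshwork. Its levels in the Klf1+Gata2+ gate differed little, with 28.9, 28.6 and 28.8 CPM and overlapping intervals. They were 59.1, 79.2 and 70.7 CPM in the Klf1+Gata2- gate and 203, 196 and 213 CPM in the Alas2+ gate, and 241, 263 and 332 CPM in the Alas2+ cells with Klf1.

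Rhd belongs to the Rh complex, which spans the membrane next to band 3. It was found at 162, 178 and 201 CPM in the Klf1+Gata2+ gate, at 278, 319 and 324 CPM in the Klf1+Gata2- gate and at 448, 425 and 436 CPM in the Alas2+ gate, or 518, 575 and 704 CPM in its cells with Klf1. Ermap was found at 235, 247 and 269 CPM, at 293, 292 and 309 CPM and at 346, 253 and 257 CPM in the 3 gates. Ermap was the only gene of the 6 with its highest level in the Klf1+Gata2- gate, and this held for IR and IR+CBD. In the Alas2+ cells with Klf1, however, Ermap stood at 404, 341 and 400 CPM, above the Klf1+Gata2- gate in every library.

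The order of onset was read from the early index, the CPM in the Klf1+Gata2+ gate as a percentage of the gene's highest CPM among the 3 erythroid gates of the same library. A high index means that a gene was near its full level at the first gate. The index of Ermap was 68.0%, 84.7% and 87.0%, the highest of the 6 in every library. Ank1 followed with 29.6%, 45.8% and 45.0%, and Rhd with 36.2%, 42.0% and 46.2%, so that these neighbours overlapped in range and are not ordered. Sptb had 14.3%, 14.6% and 13.5%, and Epb42 had 6.25%, 8.62% and 8.38%. Slc4a1 was last with 1.25%, 0.705% and 0.244%. Apart from Ank1 and Rhd, no range of a gene over the 3 libraries overlapped that of its neighbour.

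**Figure D2:**
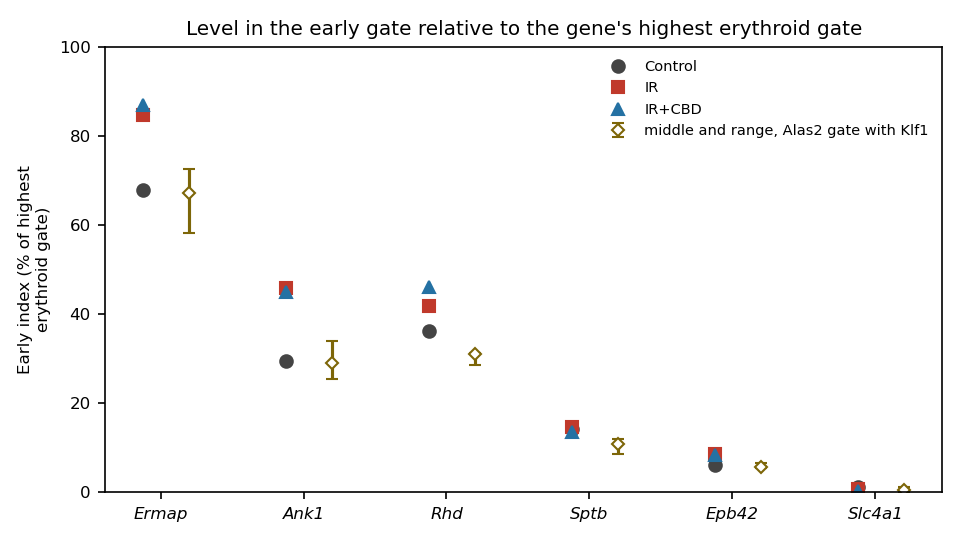
Early index (CPM in the Klf1+Gata2+ gate as a percentage of the gene's highest erythroid gate) of each gene in the Control, IR and IR+CBD libraries, with the middle value and range over libraries when the Alas2+ gate was limited to cells with Klf1 (open diamonds). The index runs from 68.0 to 87.0% for Ermap down to 0.244 to 1.25% for Slc4a1, and the limited gate lowers it for the early genes.

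With the Alas2+ gate limited to cells with Klf1, the middle index was 67.2% for Ermap, 31.0% for Rhd, 29.1% for Ank1, 10.9% for Sptb, 5.74% for Epb42 and 0.537% for Slc4a1. The order was kept except that Rhd and Ank1 changed places. When each cell was assigned to gates after thinning to 5000 UMIs, Slc4a1 had no UMI in the Klf1+Gata2+ gate of any library, in which only 15, 74 and 45 cells were left.

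Shares of single cells with a UMI follow each gene's abundance as well as its onset, and they are given as a description. In the Klf1+Gata2+ gate, with a median of 40791 to 44418 UMIs per cell, Ermap was detected in 89.3%, 90.1% and 92.5% of cells, Rhd in 81.7%, 81.8% and 84.1%, and Ank1 in 74.0%, 80.6% and 84.3%. Sptb was detected in 43.4%, 46.0% and 45.7% of these cells, Epb42 in 14.1%, 19.3% and 19.5%, and Slc4a1 in 1.53%, 1.51% and 0.718%. In Mpo+ cells outside the erythroid gates, with a median of 23826 to 32896 UMIs, the shares were 0.144 to 0.347% for Slc4a1, 0.222 to 0.347% for Epb42, 1.42 to 2.52% for Sptb, 1.93 to 2.88% for Ank1, 2.50 to 3.56% for Rhd and 1.96 to 3.85% for Ermap. The intervals of the early share of Slc4a1 overlapped those of this background in Control and IR+CBD. After thinning to 2000 UMIs, 33.9%, 34.0% and 37.9% of Klf1+Gata2+ cells held Ermap and 0.917%, 0.324% and 0.287% held Slc4a1.

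Among erythroid cells with a Slc4a1 UMI, 31 of 36, 113 of 125 and 72 of 90 also held Ermap. Of all erythroid cells a similar or larger share held Ermap, namely 549 of 600, 1347 of 1496 and 1131 of 1236. All 6 genes were found together in 0.917%, 1.29% and 0.431% of Klf1+Gata2+ cells, in 7.34%, 14.6% and 9.07% of Klf1+Gata2- cells and in 48.5%, 50.4% and 32.2% of Alas2+ cells. Conversely 18.2%, 24.3% and 27.8% of Alas2+ cells held none of the 6. Of the Alas2+ cells with Klf1, all 6 genes were found in 14 of 19, 57 of 69 and 27 of 38. The cells without Klf1 made up 42.4%, 40% and 57.8% of the gate.

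**Figure D3:**
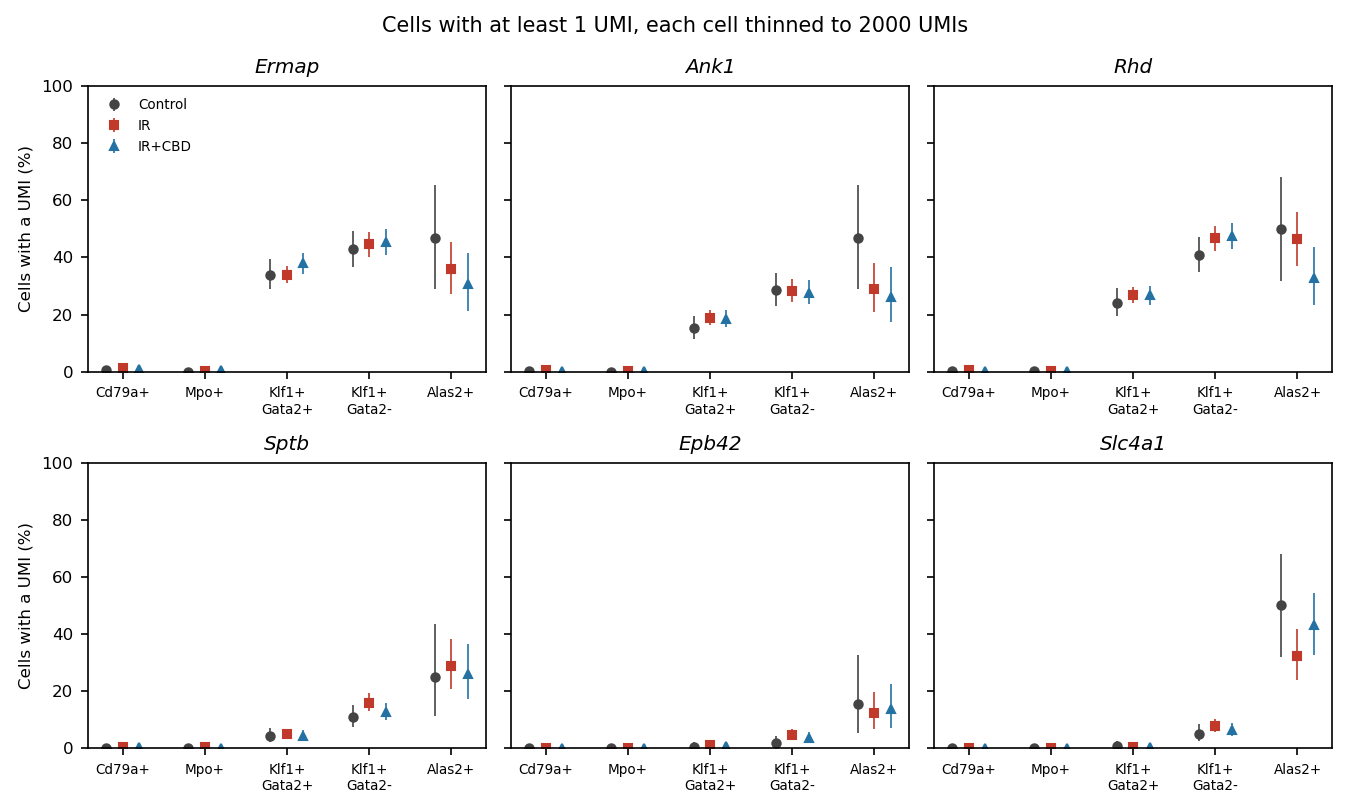
Percentage of cells with at least 1 UMI of each gene after every cell was thinned to 2000 UMIs, with exact Clopper-Pearson 95% intervals, in Cd79a+ and Mpo+ cells outside the erythroid gates and in the 3 erythroid gates of each library. Ermap is detected in 33.9 to 37.9% of Klf1+Gata2+ cells, while Slc4a1 reaches 32.5 to 50% only in the Alas2+ gate.

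The erythroid cells were also divided by their own Alas2 level. Cells without Alas2 numbered 542, 1307 and 1080, and Slc4a1 stood at 0.265, 1.98 and 1.32 CPM in them. With above 0 to 1 Alas2 UMI per 10000 UMIs (33, 101 and 77 cells) Slc4a1 was at 50.3, 56.8 and 43.7 CPM, and with above 1 to 5 (15, 67 and 41 cells) at 547, 432 and 368 CPM. Across the same steps Ermap went from 255, 256 and 279 CPM to 296, 289 and 329 CPM and then to 402, 283 and 207 CPM. Sptb went from 36.1, 35.8 and 36.6 CPM to 67.3, 87.3 and 98.9 CPM and then to 332, 255 and 204 CPM. With above 5 to 20, only 6, 21 and 33 cells were left, in which Slc4a1 stood at 499, 500 and 895 CPM and Ermap at 159, 146 and 280 CPM, and 4, 0 and 5 cells had more. These steps were not divided by Klf1 and include the Alas2+ cells without Klf1, which held granulocyte RNA. A fall at the higher steps is therefore not read as a course of maturation. In the Alas2+ cells with Klf1, Ermap stood at 404, 341 and 400 CPM and Sptb at 241, 263 and 332 CPM.

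The first comparison asked how the 6 genes stood 14 days after irradiation. Over all kept cells, all 6 were more than 1.5-fold higher in IR than in Control, a size reached upward by 4.49% of the 17989 genes with at least 100 UMIs over both libraries together. Slc4a1 went from 1.64 to 5.58 CPM, a ratio of 3.40 (interval 3.0 to 3.86). The ratio was 2.98 for Epb42 (1.12 to 3.33 CPM), 2.67 for Ank1 (16.8 to 44.8 CPM), 2.58 for Rhd (27.9 to 72.0 CPM), 2.43 for Ermap (35.1 to 85.4 CPM) and 2.39 for Sptb (6.44 to 15.4 CPM). The genes with a late onset, Slc4a1 and Epb42, had the highest of these ratios. The median ratio of the 6 was 2.62, while the median log2 ratio of all genes was -0.05.

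The erythroid gates were larger in the same direction. The share of kept cells in any erythroid gate was 2.57-fold higher in IR than in Control (interval 2.34 to 2.83), with a ratio of 2.93 for the Klf1+Gata2+ and 2.07 for the Klf1+Gata2- gate. Over all cells, more erythroid cells and more RNA per erythroid cell cannot be told apart, and the levels within the gates are the closer comparison. Over all erythroid gates together the IR to Control ratio was 1.44 for Slc4a1 (interval 1.26 to 1.65), 1.24 for Epb42 (1.06 to 1.46), 1.12 for Ank1 (1.07 to 1.17), 1.07 for Sptb (0.996 to 1.15), 1.05 for Rhd (1.02 to 1.08) and 1.00 for Ermap (0.971 to 1.03). None of these passed 1.5-fold in either direction, where 7% of 12443 genes did.

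**Figure D4:**
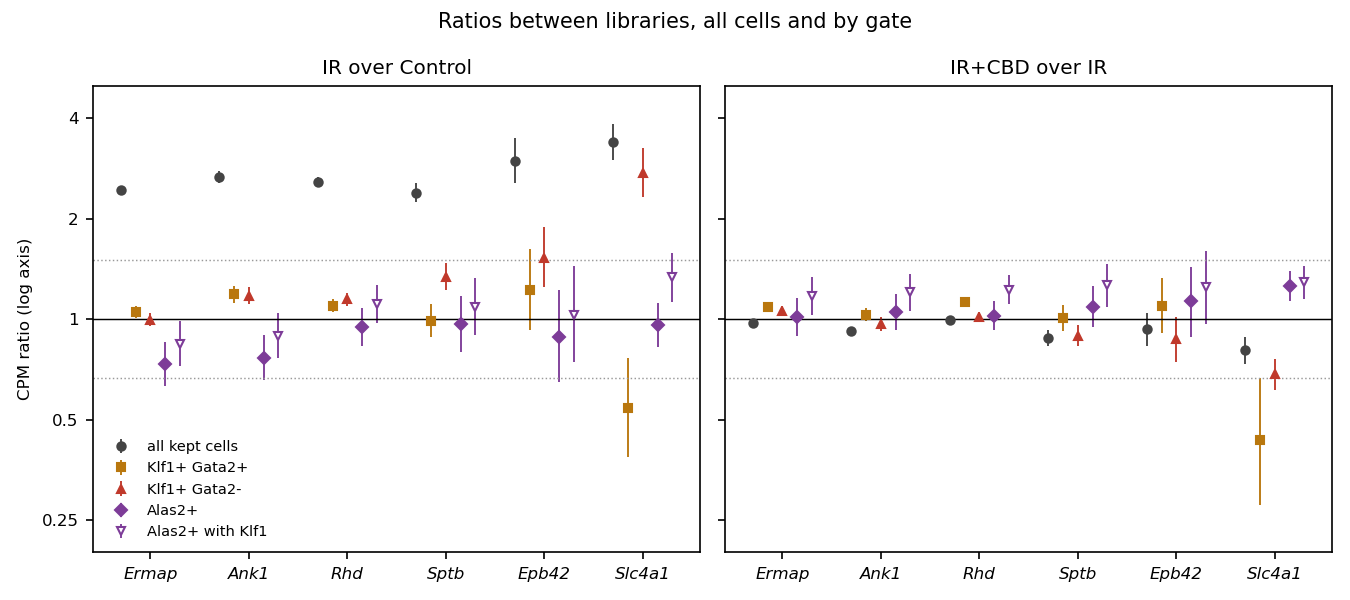
Ratio of CPM (log axis) between IR and Control and between IR+CBD and IR for each gene over all kept cells, in each erythroid gate and in the Alas2+ cells with Klf1 (open triangles), with exact conditional binomial 95% intervals and dotted lines at 1.5-fold in either direction. Over all cells the 6 IR to Control ratios lie between 2.39 and 3.40, and within the gates only Slc4a1 and, in the Klf1+Gata2- gate, Epb42 at 1.53 pass 1.5-fold.

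In the Klf1+Gata2- gate 2 of the 6 genes passed 1.5-fold upward in IR, where 2.87% of 9919 genes did. Slc4a1 had a ratio of 2.74 (interval 2.33 to 3.25) and Epb42 one of 1.53 (1.25 to 1.88). The ratio of Sptb was 1.34, that of Ank1 1.18, that of Rhd 1.15 and that of Ermap 0.997. Some cells of this gate also passed the Alas2+ gate, namely 18 of 259, 57 of 519 and 30 of 485. Without these cells the ratio of Slc4a1 was 2.39 (1.72 to 3.39), and that of Epb42 was 1.36 (1.05 to 1.76) and no longer passed 1.5-fold.

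In the Klf1+Gata2+ gate only Slc4a1 differed by 1.5-fold, and downward, with a ratio of 0.541 (interval 0.387 to 0.763), where 5.93% of 11468 genes were lower by that size. This value rests on the single Control cell with 44 UMIs and on few cells in IR. Its direction depended on which cells were kept. Without the Alas2+ cells it was 0.446 (0.212 to 0.960) on 19 and 14 UMIs, while without the cell with the most Slc4a1 UMIs of each library, an alternative added after seeing the data, it was 1.65 (0.924 to 3.18) on 71 and 14 UMIs. The other 5 genes had ratios between 0.989 for Sptb and 1.22 for Epb42.

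In the Alas2+ gate none of the 6 genes passed 1.5-fold between IR and Control, where 13.3% of 4689 genes did in either direction. All 6 ratios were below 1, from 0.732 for Ermap (interval 0.630 to 0.853) and 0.767 for Ank1 (0.659 to 0.895) to 0.964 for Sptb. Most genes lay below 1 in this gate, and 39.6% of the 4689 were higher in IR. In the Alas2+ cells with Klf1 the ratio of Ermap was 0.844 (0.724 to 0.988) and that of Ank1 0.892 (0.763 to 1.05). The other 4 ratios were above 1 there, so that their direction depended on the cells without Klf1. Slc4a1 stood at 1.33 (1.13 to 1.58), against 0.959 (0.827 to 1.12) in the whole gate, and Rhd at 1.11 (0.973 to 1.27), Sptb at 1.09 (0.898 to 1.33) and Epb42 at 1.03 (0.745 to 1.45) had intervals that held 1. The share of all genes above 1 was not computed for the cells with Klf1.

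The second comparison set CBD against solvent among irradiated mice, and it shares the IR library with the first. Over all kept cells no gene of the 6 passed 1.5-fold in either direction, where 3.72% of 17625 genes did. The ratio of IR+CBD to IR was 0.807 for Slc4a1 (interval 0.736 to 0.885), 0.880 for Sptb (0.833 to 0.928), 0.920 for Ank1 (0.892 to 0.949), 0.933 for Epb42 (0.831 to 1.05), 0.974 for Ermap (0.952 to 0.995) and 0.992 for Rhd (0.968 to 1.02). The share of cells in the erythroid gates had a ratio of 0.832 (0.771 to 0.898). Over the erythroid gates together, Rhd at 1.11 (1.08 to 1.14) and Ermap at 1.09 (1.06 to 1.11) were slightly higher in IR+CBD, Slc4a1 stood at 0.916 (0.833 to 1.01), and Sptb, Ank1 and Epb42 had ratios of 1.00, 1.03 and 1.04 with intervals that held 1. None passed 1.5-fold in either direction, where 3.26% of 12908 genes did.

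By gate, only Slc4a1 in the Klf1+Gata2+ gate passed 1.5-fold, with a ratio of 0.435 (interval 0.277 to 0.664) on 29 and 96 UMIs, where 2.56% of 11889 genes were lower by that size. It was 0.0810 without the cell with the most Slc4a1 UMIs of each library, 0.0700 when the cells with the highest doublet scores were left out and 0.0687 without the cells that also passed the Mpo+ or Cd79a+ gate, so that its size depends on which few cells are kept. In the Klf1+Gata2- gate its ratio was 0.684 (0.615 to 0.760), and 0.822 (0.662 to 1.02) without the Alas2+ cells. In the Alas2+ gate the 6 ratios lay between 1.02 for Ermap and 1.26 for Slc4a1, where 34.5% of 5265 genes were higher in IR+CBD. In the Alas2+ cells with Klf1 the 6 ratios lay between 1.17 for Ermap (1.03 to 1.34) and 1.29 for Slc4a1 (1.15 to 1.45). Their intervals were above 1 for 5 of the 6 genes, although only 38 and 69 cells stood behind them. The share of all genes was not computed for the cells with Klf1, so that a shift shared by many genes cannot be told apart. Against Control, IR+CBD had ratios over all cells between 2.10 for Sptb and 2.78 for Epb42, and the median of the 6 was 2.51.

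Other genes of the red cell membrane had onsets spread over the same span. Of 21 listed genes for skeleton, blood group and transport proteins, 20 had at least 20 UMIs in the erythroid gates. Among the erythroid gates, 16 of them had their highest level in the Alas2+ gate of all 3 libraries, and 10 had a middle early index of at least 50%. The share of all genes with such a peak or index was not computed, so that these counts describe the list only. The earliest was the urea transporter gene Slc14a1, with an index of 91.5% and levels of 45.7, 46.3 and 48.3 CPM in the Klf1+Gata2+ gate. Among the latest were Tmod1, which encodes a cap of the short actin filaments of the skeleton, at 8.26%, the dematin gene Dmtn at 5.88% and Ackr1, the gene of the Duffy antigen, at 3.49%. The middle index of Slc4a1, 0.705%, was lower than that of every gene of this list, but its range overlapped that of Ackr1 (1.22 to 3.87%), and Ermap stood close to Slc14a1 at the early end.

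Over all cells, 18 of the 20 list genes with at least 100 UMIs over both libraries were higher in IR than in Control and 9 passed 1.5-fold upward, with a median ratio of 1.48. Of all genes, 41.6% were higher and 4.49% passed that size. Within the erythroid gates the median was 1.08 and none passed it in either direction, against 7% of all genes. A further list held 12 genes that serve other tissues, relatives of the 6 genes and, in the case of Epb41l2, of the protein 4.1 gene. In the erythroid gates 9 of them had at least 20 UMIs. Of these, 3 (Sptbn1, Ank3 and Tgm2, named after their values were seen) had their highest erythroid gate in Alas2+ in all 3 libraries, Ank3 there on 1 UMI per library. In Cd34+Adgrl4+ cells outside the erythroid gates Sptbn1 stood at 465 to 644% of its highest erythroid gate, Ank3 at 23.7 to 68.9% and Tgm2 at 3.92 to 7.25%. Among the erythroid gates, Slc4a7 and Epb41l2 were highest in the Klf1+Gata2+ gate in all 3 libraries. Slc4a2, a relative of Slc4a1 that is widely expressed, was highest there in Control and IR+CBD. Slc4a7, a bicarbonate transporter gene, went from 60.1, 51.1 and 53.1 CPM in the Klf1+Gata2+ gate to 36.8, 25.5 and 15 CPM in the Alas2+ gate. Epb41l2, a relative of the protein 4.1 gene, went from 32.7, 21 and 21.1 CPM to 11.8, 10.1 and 10.9 CPM, so that both were lower in the late than in the early gate, the opposite of Slc4a1.

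The genes most alike in pattern were found by the correlation of log2(CPM + 1) over 5 gates in 3 libraries (15 points that share libraries, and gates that share cells), among 3604 genes with at least 200 UMIs in the Alas2+ gate. Ermap was closest to Tspo2, Abcb4 and Slc38a5 (Pearson r 0.998 each). Ank1 was closest to Nxpe2, Tspan33 and Cpox (r 0.999 each), and Rhd to Cldn13 (r 0.999), Cpox and Asb17os (r 0.998 each). Cpox encodes an enzyme of heme synthesis. Sptb was close to Btnl10 and Tmem120b (r 0.996 each), and Epb42 was closest to Trim10 (r 0.998), Rnf123 and Fam210b (r 0.997 each). Slc4a1 had the least close matches, with Brpf3 (r 0.989), Evi5 (r 0.988) and F930017D23Rik (r 0.987). Among the 6 genes themselves r was highest for Ank1 with Rhd (0.998) and lowest for Slc4a1 with Ermap (0.724).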

How the data were processed

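For each of the 3 libraries (10x Genomics single-cell 3′ V2 kit) the authors deposited raw UMI counts, with genes in rows and barcodes in columns. Per the file headers these came from Cell Ranger 7.0.1, whose default setting includes introns, although version 4.0 is named in the methods and in the submitters' processing notes. The notes name the genome GRCm39. Gene positions and upstream sequences were taken from GRCm38 by identifier or symbol, and no coordinate was converted. Cells with at least 200 genes and at most 5% mitochondrial UMIs were kept, and predicted doublets were kept, with their removal by Scrublet score (scanpy 1.11.5) as an alternative. UMIs were summed per gate and scaled to CPM. Intervals are exact Poisson for CPM, exact conditional binomial for ratios and Clopper-Pearson for shares, at 95%, and PCR and mouse differences are outside them. A ratio of 1.5 in either direction was the rule of size, read against the share of all genes with at least 100 UMIs over both libraries together that passed it. The 6 genes, the gates and the lists were chosen with earlier results of these data known. Named were the 6 genes, the 4 highest and 4 lowest list genes by early index, and for each gene the 3 most alike in pattern, of which some are not reported here. The division of the Alas2+ gate by Klf1, the removal of Mpo+ and Cd79a+ cells from the erythroid gates and that of the cell with the most UMIs of a gene were chosen after seeing the data. Intervals and ratios were tested on simulated Poisson counts drawn independently for each gene. This check cannot cover clustering of UMIs in a few cells or cells shared between gates, which the simulation did not hold. Python 3.11.15, numpy 2.4.6, scipy 1.17.1, pandas 2.3.3 and matplotlib 3.10.9 were used.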

Additional observations from a re-analysis of the deposited data

Results flagged for a closer look

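Some genes differed between the erythroid gates in the direction of the same ratio, with intervals that excluded 1 on both sides, and these differences were not tested. For IR over Control, Slc4a1 had a ratio of 0.541 in the Klf1+Gata2+ gate and 2.74 in the Klf1+Gata2- gate. Without the Alas2+ cells these ratios were 0.446 (0.212 to 0.960) and 2.39. Without the cell with the most Slc4a1 UMIs of each library the first was 1.65 (0.924 to 3.18). That step took 44 of 58 UMIs from Control but only 25 of 96 from IR. The contrast in direction thus depended on which cells were left out. Ank1 had ratios of 1.19, 1.18 and 0.767 in the Klf1+Gata2+, Klf1+Gata2- and Alas2+ gates, and Ermap had 1.05 in the first and 0.732 in the last. In the Alas2+ cells with Klf1 the ratio of Ank1 was 0.892 with an interval of 0.763 to 1.05, which holds 1, and that of Ermap 0.844 (0.724 to 0.988). For IR+CBD over IR, Slc4a1 had ratios of 0.435, 0.684 and 1.26 in these gates.

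Barcodes left out by the filters also held the 6 genes. In IR, where 1606 barcodes were left out, Slc4a1 stood at 39.4 CPM, Sptb at 75.5, Ank1 at 194, Rhd at 64.1 and Ermap at 155 CPM, all above the intervals of the Control barcodes left out, in which they stood at 12.8, 49.96, 105, 36.8 and 81.6 CPM. Of these IR barcodes 31 passed an erythroid gate. In IR+CBD the same genes stood at 11.5, 35.7, 76.5, 33.9 and 65.7 CPM. The left-out barcodes held 15.3%, 13.8% and 6.02% of the Slc4a1 UMIs of Control, IR and IR+CBD.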

How the results depend on the processing

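No paired analysis was possible because each group is 1 library. Over all cells, the median IR to Control ratio of the 6 genes stayed between 2.60 and 2.76 under the alternatives for cell filters, doublets, depth, scaling and the cell with the most UMIs, and those for the gates leave this value as it is by construction. The order of onset kept at least 14 of 15 gene pairs under all 11 alternatives that could change it, where a tie counted as kept. The pair that changed was Ank1 and Rhd. After thinning, Epb42 and Slc4a1 were also tied at a middle index of 0, so that their order was lost there. No interval of a median ratio was computed. Each median was instead compared with the median lower and the median upper interval end of the 6 genes. Values that left this range are as follows, and the cause was not tested. With a minimum of 4 UMIs for Klf1 and Alas2 the median IR to Control ratio in the Alas2+ gate was 0.701, against 0.916. With gates after thinning to 5000 UMIs, which left 8 to 40 Alas2+ cells, the median IR to Control ratio was 2.76 over all cells, 1.505 in the Klf1+Gata2- gate and 1.86 in the Alas2+ gate, that of IR+CBD to IR 0.848 over all cells, and that of IR+CBD to Control 1.58 in the Klf1+Gata2- and 1.76 in the Alas2+ gate. The thinned Klf1+Gata2+ gate gave no median, since Slc4a1 had no UMI there. With the mean over cells, the Klf1+Gata2- medians were 1.49 for IR to Control, 0.872 for IR+CBD to IR and 1.30 for IR+CBD to Control, and the last was 2.35 over all cells. Scaling by the median of ratios gave 1.21 for IR+CBD to Control in the Alas2+ gate. The Alas2+ gate limited to cells with Klf1 gave 1.24 for IR+CBD to IR and 1.32 for IR+CBD to Control. Without the cell with the most UMIs of each gene, the median IR to Control ratio in the Klf1+Gata2+ gate was 1.15, against 1.08, and that of Slc4a1 turned from 0.541 to 1.65. No other ratio past 1.5-fold changed direction under the alternatives run. The Alas2+ gate of Control, with 33 cells, limits every late value.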
